A study of Homo sapiens with 24 samples.

Results

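The catenins, the cadherins they bind and the plaque genes of the desmosome were followed in colorectal cancer cells that had lost CTNNB1, the gene of β-catenin. The 10 genes, of 58051 gene identifiers in the files, were chosen by name: the catenin genes CTNNB1, JUP, CTNNA1 and CTNND1, the desmosome plaque genes PKP2, PKP3 and DSP, and the cadherin genes CDH1, CDH3 and CDH17. The question was whether JUP, the closest relative of CTNNB1, or any of the others was higher in the absence of CTNNB1. RNA was sequenced from the human colorectal carcinoma cell lines HT29, HCT116 and SW480, each as 2 wild-type (WT) and 2 knock-out (KO) clones in rounds A and B, which gave 24 libraries and 4 per genotype and line. The KO clones carried a biallelic CRISPR/Cas9 deletion of CTNNB1 exon 7, and the WT clones came from the same editing and cloning but kept an intact gene. HT29 had the WT clones 11 and 40 and the KO clones 28 and 38, HCT116 the WT clones 4 and 6 and the KO clones 44 and 47, and SW480 the WT clones 4 and 5 and the KO clones 17 and 21. WT cells were not free of pathway lesions, since HT29 and SW480 carry APC mutations and HCT116 an activating CTNNB1 mutation. The SW480 KO clones were described in the study as turning senescent in long culture. Rounds A and B of a clone share that clone, so that a genotype rests on 2 clones per line, and the p-values over 4 libraries count libraries and not clones.

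β-Catenin works both as a structural part of adherens junctions and as a coactivator of TCF/LEF transcription factors. At the junction, the cytoplasmic tail of a classical cadherin such as E-cadherin holds β-catenin or its relative plakoglobin (JUP), either of which recruits α-catenin (CTNNA1) and through it actin, while p120-catenin (CTNND1) binds nearer the membrane and keeps the cadherin on the cell surface. Plakoglobin is in addition a plaque protein of the desmosome, where it links desmosomal cadherins, together with the plakophilins, to desmoplakin (DSP) and the keratin filaments. CDH17, the liver-intestine cadherin, has a short tail and adheres without catenins.

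The deletion removed the sequence shown first, exon 7 of the canonical transcript ENST00000349496 at chr3:41268699-41268843 on the plus strand of GRCh37, a coding exon that lies downstream of the start codon in exon 2. Its 145 bases leave a remainder of 1 when divided by 3. Joining exon 6 to exon 8 in this transcript put a stop 5 codons after the codon at the new junction, so that 317 codons stood before the stop in place of 781.
CTNNB1 exon 7: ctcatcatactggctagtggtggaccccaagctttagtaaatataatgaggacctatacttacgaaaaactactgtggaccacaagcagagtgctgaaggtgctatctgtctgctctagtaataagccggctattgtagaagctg
Promoter windows of 250 bases before the annotated start (RefSeq, GRCh38.p14) were at hand for 4 of the 10 genes (CTNNB1, JUP, CTNNA1 and DSP), 8 windows in all. The windows of JUP, which rose in all 3 lines, and of DSP, which fell in SW480, are shown with matches to the E-box CAGGTG, the letters bound by SNAI and ZEB repressors, in capitals, whichever strand holds them. Both strands were also searched for the TCF/LEF core CTTTGAT.
JUP, chr17:41786712-41786961 (minus strand): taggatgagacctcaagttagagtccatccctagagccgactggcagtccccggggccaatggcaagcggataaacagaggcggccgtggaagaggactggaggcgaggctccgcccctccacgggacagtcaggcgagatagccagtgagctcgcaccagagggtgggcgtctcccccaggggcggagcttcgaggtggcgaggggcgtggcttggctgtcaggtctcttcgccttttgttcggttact
JUP, chr17:41785977-41786226 (minus strand): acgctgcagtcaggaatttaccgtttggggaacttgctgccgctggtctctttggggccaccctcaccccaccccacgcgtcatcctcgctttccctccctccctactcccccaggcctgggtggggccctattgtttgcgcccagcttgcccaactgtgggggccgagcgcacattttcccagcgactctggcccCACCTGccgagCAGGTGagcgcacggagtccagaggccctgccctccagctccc
DSP, chr6:7541421-7541670 (plus strand): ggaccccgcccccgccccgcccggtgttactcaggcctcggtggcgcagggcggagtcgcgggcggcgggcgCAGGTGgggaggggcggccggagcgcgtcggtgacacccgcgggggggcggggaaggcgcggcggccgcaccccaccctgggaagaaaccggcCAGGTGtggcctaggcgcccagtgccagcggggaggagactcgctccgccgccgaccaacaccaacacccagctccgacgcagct
The TCF/LEF core was in none of these 3 windows. Of the other 5 it was in 2, which overlap upstream of CTNNA1 and hold 1 site 41 or 211 bases before their starts, and it was present in 2.26% of 35116 windows of all genes. The E-box was absent from the first JUP window, and it occurred 2 times in the second JUP window, starting 54 and 43 bases before that start, and 2 times in the DSP window, 178 and 85 bases before it. Of all windows, 17.5% held an E-box. A match is a string of letters and no measure of binding.

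The libraries held 22297049 to 29068378 reads on genes (median 27486226). All values below are normalized counts, that is, reads divided by 1 size factor per library, unless they are said to be per kb. One library stood apart: HCT116 KO 47A had reads on 35449 identifiers, against 20256 to 24944 in the other 23. Without it the same genes of the 10 passed in HCT116 as with it. Of 9 epithelial markers, EPCAM, KRT8, KRT18 and KRT19 had WT means of 1645 or more in all 3 lines. EPCAM averaged 23057, 13434 and 1645 and KRT8 223661, 74857 and 87669 in WT of HT29, HCT116 and SW480. The others were not high in every line. The intestinal factor gene CDX2 was at 5.06 in HT29 WT, VIL1 at 3.03 and LGALS4 at 1.62 in HCT116 WT, and KRT20 at 2.91 in SW480 WT. CDX1 was at 0 in WT of all 3 lines. PTPRC, CD3E and CDH5, which mark leukocytes, T cells and endothelium, had means of at most 3.65 in every group. The 9 matched genes of other cell types summed to 18.2 to 95 in HT29 libraries, 305 to 479 in HCT116 and 200 to 444 in SW480. COL1A1 led the sum except in SW480 KO, where it averaged 132 and VWF, an endothelial gene, 161. Of these markers, VWF rose in SW480 from 20.2 (2.98, adjusted p = 5.26e-05) and COL1A2 went from 81.7 in WT to 0.46 in KO. Their part in the SW480 values was not tested.

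JUP was the single gene of the 10 that was higher in KO clones of all 3 lines, and CTNNB1 the single one that was lower in all 3. The test was limma, with an adjusted p under 0.05 taken over all genes tested. In HT29, CDH17 entered the test through its KO libraries alone, so that its difference was fixed by the filter on low values and is not counted. Of the other 9 genes, 1 rose (JUP) and 1 fell (CTNNB1). Of all 14921 genes tested there, 2.08% rose and 0.476% fell. In HCT116, 4 of 9 tested genes rose (JUP, CDH1, PKP2 and PKP3) and 1 fell, against 8.05% and 5.93% of 15404 genes. In SW480, 2 of 9 rose (JUP and CTNND1) and 5 fell (CTNNB1, CDH3, DSP, PKP2 and PKP3), against 26.1% and 22.1% of 16325 genes. PKP2 and PKP3 thus rose in HCT116 and fell in SW480. How many of all genes passed in the same direction in all 3 lines, or in opposite directions in HCT116 and SW480, was not counted. CTNNB1, the deleted gene, is among the falls of each line by design. CDH3 met the filter in SW480 through its 4 WT libraries, with 1 KO library at 10, so that its fall was favoured by the filter. These falls are not read as a result about the 10 genes, and both also enter the SW480 median given below. With the round as a block, which paired the HCT116 libraries, 6 of 9 genes rose in HCT116, with CTNNA1 (adjusted p = 0.0489) and CTNND1 (0.0170) in addition. The median log2 difference between KO and WT over these 9 genes was 0.36 (HT29), 0.34 (HCT116) and -0.67 (SW480), beside 0.03, -0.01 and 0.00 over all genes tested.

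**Figure D1:**
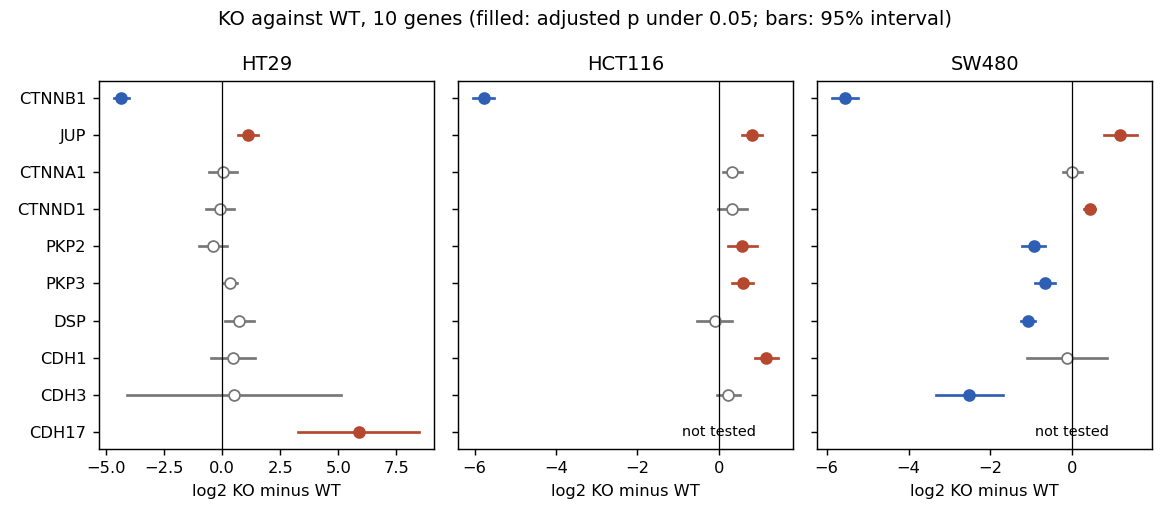
Log2 difference between KO and WT (x axis, separate scale per line) of the 10 genes in HT29, HCT116 and SW480, with 95% confidence intervals from limma over 4 KO and 4 WT libraries. Filled points passed an adjusted p of 0.05, red for a rise and blue for a fall, among them CDH17 in HT29, whose difference the filter fixed: CTNNB1 lies far to the left and JUP to the right in each line (1.10, 0.81 and 1.17), whereas PKP2 and PKP3 change side between HCT116 and SW480.

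CTNNB1 itself was first checked in every library. In HT29 it stood at 6019 and 6067 in WT 11, 5883 and 6113 in WT 40, 256 and 293 in KO 28 and 313 and 337 in KO 38 (rounds A and B). In HCT116 the values were 12410 and 12800 in WT 4, 10512 and 11952 in WT 6, 187 and 222 in KO 44 and 207 and 255 in KO 47. In SW480 they were 50939 and 50570 in WT 4, 43114 and 43245 in WT 5, 839 and 840 in KO 17 and 1106 and 1312 in KO 21. Every KO library was thus far below every WT library of its line, as the labels say. Such a separation with KO at the bottom was seen for 4.71%, 9.61% and 20.9% of all genes tested in HT29, HCT116 and SW480. The KO means came to 4.98% (HT29), 1.83% (HCT116) and 2.18% (SW480) of the WT means. On the log2 scale, CTNNB1 fell by 4.33 ± 0.14 (SE, adjusted p = 2.54e-06) in HT29, by 5.77 ± 0.12 (2.19e-10) in HCT116 cells and by 5.54 ± 0.14 (2.52e-09) in SW480. With the reads of each clone summed (2 against 2), the adjusted p in HT29 was 0.060, the single fit of 24 in which it missed the threshold. The fall in HT29 was smaller than in HCT116 by 1.44 ± 0.19 (adjusted p = 2.84e-05) and smaller than the SW480 fall by 1.21 ± 0.19 (8.87e-05). Within SW480 KO cells, clone 21 retained more CTNNB1 reads than clone 17 (log2 difference 0.52 ± 0.08, adjusted p = 0.000127). The span of CTNNB1 overlaps ULK4 on the other strand, and without strand in the libraries reads of the 2 genes in shared exons cannot be told apart. The spans of CTNNA1, PKP2, DSP, CDH1 and CDH3 also overlap genes of the other strand.

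JUP encodes plakoglobin and was the gene of interest. In HT29 its values were 6692 and 7893 in WT 11, 9822 and 12417 in WT 40, 20020 and 19066 in KO 28 and 19370 and 18620 in KO 38. The 4 KO libraries lay close together and above all WT libraries, while WT 11 lay under WT 40 (log2 difference 0.60 ± 0.19, adjusted p = 0.101). In HCT116 JUP read 6275 and 5876 in WT 4, 4730 and 5127 in WT 6, 9046 and 8708 in KO 44 and 10394 and 10460 in KO 47. In SW480 it was lowest of the lines, with 1331 and 1377 in WT 4, 1425 and 1179 in WT 5, 2352 and 2271 in KO 17 and 4015 and 3712 in KO 21. In no line did KO and WT libraries overlap, a separation with KO on top that 8.31%, 10.9% and 25.3% of all genes tested showed in HT29, HCT116 and SW480.

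The KO mean of JUP came to 209% (HT29), 175% (HCT116) and 233% (SW480) of the WT mean. JUP rose by 1.10 ± 0.20 on the log2 scale in HT29 (SE, n = 4 against 4, limma, 95% interval 0.66 to 1.55, adjusted p = 0.0229), by 0.81 ± 0.11 in HCT116 (0.57 to 1.06, adjusted p = 0.000793) and by 1.17 ± 0.18 in SW480 (0.76 to 1.58, adjusted p = 0.000499). In HCT116 and SW480 the rise passed in all 24 alternative fits, with adjusted p of at most 0.0326 and 0.0228. In HT29 it passed in 14 of 24 (adjusted p 0.000179 to 0.668). It missed there when the clone was a random effect (0.099) or its reads were summed (0.668). It also missed without any 1 of the libraries WT 11A, WT 11B, WT 40A, KO 28A, KO 28B or KO 38A (0.059 to 0.088), and without the clones WT 11 (0.092) or KO 28 (0.070), its log2 difference staying between 0.80 and 1.41 throughout.

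**Figure D2:**
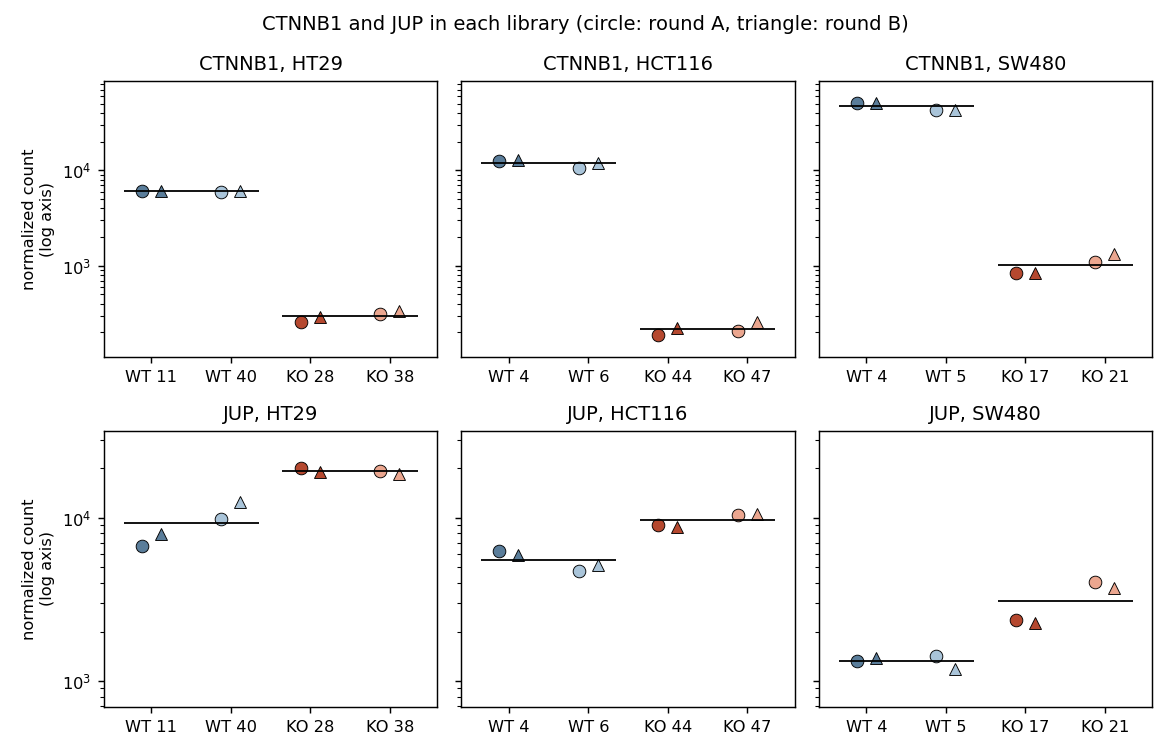
Normalized counts (y axis, log scale, shared within a row) of CTNNB1 and JUP in each of the 24 libraries, by clone (x axis) and line, with WT clones in blue, KO clones in red, circles for round A, triangles for round B and lines at the mean of 4 libraries. CTNNB1 drops to 1.83 to 4.98% of WT in the KO clones, and JUP lies higher in every KO library than in any WT library of its line.

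The size of the JUP rise did not differ between lines past the threshold. The difference of the KO effects on the log2 scale was 0.29 (95% interval -0.23 to 0.81, adjusted p = 0.539) for HT29 minus HCT116, -0.07 (-0.58 to 0.45, adjusted p = 0.891) for HT29 minus SW480 and -0.36 (-0.88 to 0.16, adjusted p = 0.414) for HCT116 minus SW480. Differences within these intervals are not excluded. In SW480 the KO clones differed in JUP: KO 21 had more JUP than KO 17 by 0.74 ± 0.09 (adjusted p = 1.49e-05), its log2 difference from WT being 1.54 against 0.80. The KO clones of HT29 differed by -0.04 ± 0.19 (adjusted p = 0.896) and those of HCT116 by 0.23 ± 0.10 (0.216). Of the 9 or 10 tested genes, 5 differed between the SW480 KO clones, 3 between those of HT29 and 2 between those of HCT116, against 28.0%, 16.0% and 7.16% of all genes. Between WT clones the counts were 1, 2 and 0, against 8.88%, 9.02% and 2.61%. Both HT29 counts include CDH3, which met the filter through the clones WT 11 and KO 38 alone. Its clone differences were fixed by the filter and are not read as a result. With at least 10 in every library, which removes CDH3 and CDH17, 1 gene differed between the HT29 KO clones and 1 between the WT clones. The longest stretch of identical bases shared by the canonical transcripts of CTNNB1 and JUP was 17 bases.

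Since plakoglobin and β-catenin occupy the same place on cadherins, their RNA levels were set side by side per kb of canonical transcript (3661 bases for CTNNB1 and 3505 for JUP). In WT cells JUP made up 53.7 to 68.0% of the sum of both in HT29, 30.9 to 34.6% in HCT116 and 2.66 to 3.34% in SW480, where CTNNB1 was 33.9 times JUP. In KO cells it made up 98.3 to 98.8%, 97.6 to 98.1% and 73.8 to 79.1%. The sum went from 4271 ± 719 per kb (SD, n = 4) in WT to 5579 ± 159 in KO of HT29, or 131% of WT. In HCT116 it went from 4825 ± 455 to 2813 ± 262, or 58.3%, and in SW480 from 13208 ± 1204 to 1161 ± 314, or 8.79%. KO and WT libraries did not overlap in any line (exact permutation test, two-sided, p = 0.0286 each, the smallest that 4 against 4 can give). In HCT116 and SW480 CTNNB1 made up most of this WT sum. The fall of the sum there follows largely from the knock-out, so that these p-values do not test JUP.

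The gain of JUP per kb amounted to 184% (HT29), 37.0% (HCT116) and 4.00% (SW480) of the loss of CTNNB1 per kb. These levels depend on the transcript length assumed. With all annotated exons of each gene joined in place of the canonical transcript, a choice added after the data had been seen, the log2 difference of the sum was -0.11 in place of -0.78 in HCT116 (exact permutation p = 0.314). In HT29 it was 0.75 in place of 0.40 and in SW480 -2.62 in place of -3.54, with the same p. The sum in KO then came to 165%, 92.7% and 16.7% of WT in HT29, HCT116 and SW480, and the gain of JUP to 419%, 84.4% and 9.11% of the loss of CTNNB1.

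**Figure D3:**
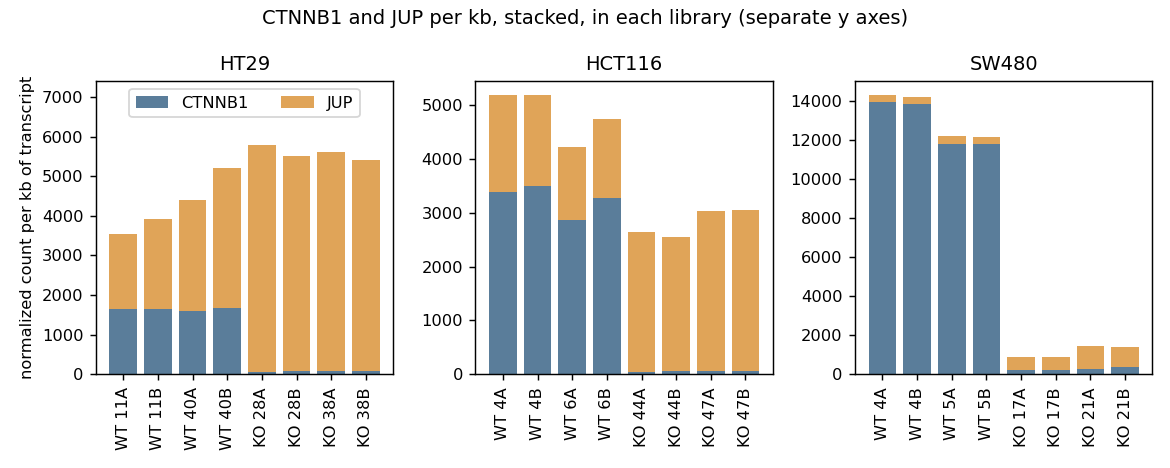
CTNNB1 (blue) and JUP (orange) in normalized counts per kb of canonical transcript, stacked, in each of the 24 libraries (x axis: genotype, clone and round), with a y axis of its own per line that starts at 0. KO bars are nearly all JUP and stand above the WT bars in HT29 (5579 against 4271 on average), below them in HCT116 (2813 against 4825) and far below them in SW480 (1161 against 13208).

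α-Catenin, the actin link that binds β-catenin or plakoglobin, passed in no line in the main fit. CTNNA1 was between 14435 and 25724 in HT29 WT and between 13830 and 23537 in HT29 KO, with clone WT 11 (15258 and 14435) below WT 40 (25724 and 25545). The log2 difference in HT29 was 0.03 ± 0.26 (adjusted p = 0.971). In HCT116 its KO values, 13578, 13171, 14640 and 16984, lay above the WT values, 10322, 11276, 11787 and 12951, by 0.33 ± 0.11, with an adjusted p of 0.061. With the round as a block, which paired the HCT116 libraries, that p was 0.0489. The rise in HCT116 passed in 5 of 24 alternative fits (adjusted p 0.0141 to 0.318). In SW480 the KO clones parted to either side of WT: KO 17 stood at 25298 and 24642, KO 21 at 32594 and 33117 and the WT libraries between 27446 and 30021. The clones differed by 0.40 ± 0.06 (adjusted p = 0.000169) and the genotypes by 0.00 ± 0.10 (0.988). Without KO 17 the difference was 0.20 (adjusted p = 0.0285) and without KO 21 it was -0.20 (0.0227).

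p120-Catenin rose in SW480. CTNND1 was between 6118 and 6567 in the SW480 WT libraries and between 8152 and 8900 in the KO libraries, a rise of 0.42 ± 0.06 (adjusted p = 0.000192). It missed the threshold in 1 of 24 alternative fits, that of all 24 libraries together (0.136). In HCT116, round B read higher than round A in each clone. The KO values were 6082 and 8752 in KO 44 and 5928 and 9044 in KO 47, and the WT values 5100 and 6877 in WT 4 and 4910 and 6518 in WT 6. The difference there was 0.34 ± 0.17 (adjusted p = 0.205), and 0.0170 with the round as a block. In HT29 it was -0.08 ± 0.27 (0.903), and KO 38B, at 6079, was far under the other KO libraries (11226 to 13300). The KO effects on CTNND1 in HCT116 and SW480 differed by -0.08 (95% interval -0.67 to 0.50, adjusted p = 0.900).

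Both plakophilin genes rose in HCT116 and fell in SW480. Of 6 tested epithelial markers in SW480, 2 fell, beside 22.1% of all genes tested. EPCAM went from 1645 to 818 (a fall of 0.99, adjusted p = 0.00388) and CDX2 from 1097 to 106 (a fall of 3.49, 3.83e-05). The other 4 (KRT8, KRT18, KRT19 and VIL1) did not pass. The part of these markers in the plaque values was not tested. PKP2, a plakophilin that bridges desmosomal cadherins and desmoplakin, was 761 and 812 in HCT116 WT 4, 1016 and 1026 in WT 6, 1596 and 1621 in KO 44 and 1090 and 1136 in KO 47. KO 44 accounted for the greater part of the distance, and KO 47 lay just above WT 6. PKP2 rose there by 0.58 ± 0.16 (adjusted p = 0.0384), and KO 47 was lower than KO 44 by 0.53 ± 0.12 (0.0211). This call held in 12 of 24 alternative fits (adjusted p 0.00438 to 0.280). It was lost without any 1 of the 4 WT libraries, KO 44A or KO 44B (0.052 to 0.108), without the clones WT 4, WT 6 or KO 44 (0.214, 0.054 and 0.280) and in 3 other fits.

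In SW480, PKP2 stood at 5490 and 5443 in WT 4, 4106 and 5015 in WT 5, 2261 and 2218 in KO 17 and 3091 and 2867 in KO 21, and fell by 0.95 ± 0.13 (adjusted p = 0.000179). In HT29 the genotypes overlapped, at 1440 to 2649 in WT and 976 to 2015 in KO, with a difference of -0.40 ± 0.27 (0.490). Differences of KO effects between lines passed for 2 of 9 tested genes between HT29 and HCT116, for 3 between HT29 and SW480 and for 3 between HCT116 and SW480, against 7.82%, 14.1% and 12.2% of all genes. The counts of both pairs with HT29 include CTNNB1, the deleted gene. Apart from it, PKP2 alone passed between HT29 and HCT116. The KO effect on PKP2 was higher in HCT116 than in SW480 by 1.53 ± 0.30 (adjusted p = 0.00118) and higher than in HT29 by 0.97 ± 0.30 (0.0469). The second of these missed with the round as a block (0.0705) and with the clone as a random effect (0.189).

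PKP3, the plakophilin found in most epithelia, behaved alike. It was 3631, 2797, 2883 and 2495 in HCT116 WT (4A, 4B, 6A, 6B) and 4871, 4140, 4424 and 4144 in KO (44A, 44B, 47A, 47B), a rise of 0.58 ± 0.12 (adjusted p = 0.00893). That call held in 21 of 24 fits and was lost on summed reads (0.112) and without WT 6 (0.092) or KO 44 (0.056). In SW480 the range was 1600 to 1672 in WT, KO libraries had 1203, 1117, 819 and 992, and PKP3 fell by 0.67 ± 0.11 (0.000523). In HT29 all KO libraries (6005 to 7224) were above all WT libraries (4724 to 5717), but the difference, 0.36 ± 0.13, had an adjusted p of 0.226. The KO effect in SW480 differed from that in HCT116 by 1.26 ± 0.17 (adjusted p = 1.64e-05) and from that in HT29 by 1.03 ± 0.17 (0.000174), being the lower one in both.

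DSP, the desmoplakin gene, fell in SW480. Its values there were 6544, 7872, 7850 and 7566 in WT (4A, 4B, 5A, 5B) and 3808, 3390, 3329 and 3490 in KO (17A, 17B, 21A, 21B), so that the KO mean was 47.0% of WT, a fall of 1.09 ± 0.08 (adjusted p = 1.58e-06). In HCT116 the ranges, 4375 to 8026 in WT and 4864 to 8052 in KO, coincided, with a difference of -0.11 ± 0.20 (0.767). In HT29 DSP was 1784, 895, 1648 and 1481 in WT (11A, 11B, 40A, 40B) and 2083, 2366, 3476 and 1739 in KO (28A, 28B, 38A, 38B). That difference was 0.73 ± 0.28, with an adjusted p of 0.233, and 0.0270 in the fit of all 24 libraries. The KO effect in SW480 was lower than that in HT29 by 1.82 ± 0.31 (adjusted p = 0.000237) and than that in HCT116 by 0.98 ± 0.31 (0.0388, and 0.329 with the clone as a random effect). All 3 plaque genes kept the SW480 fall in the 24 alternative fits each (highest adjusted p 0.0325, of PKP3).

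**Figure D4:**
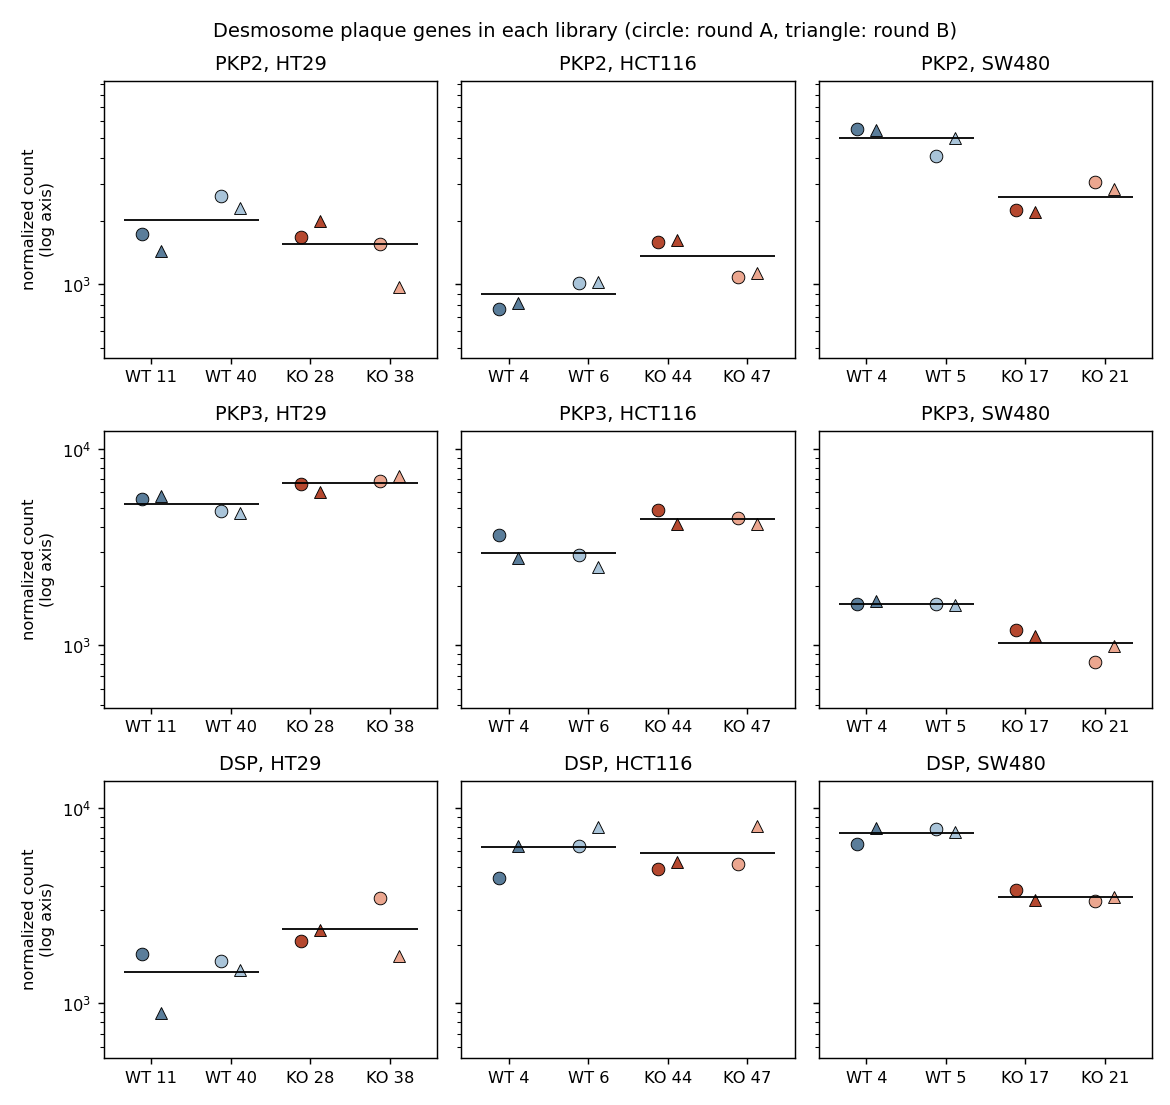
Normalized counts (y axis, log scale, shared within a row) of PKP2, PKP3 and DSP in each of the 24 libraries by clone (x axis), with WT clones in blue, KO clones in red, circles for round A, triangles for round B and lines at the mean of 4 libraries. All SW480 KO libraries lie under all SW480 WT libraries for each gene, and in HCT116 the KO libraries of PKP2 and PKP3 lie above the WT libraries.

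Among the cadherins, E-cadherin rose in HCT116. CDH1 was 1616, 1655, 1472 and 1181 in WT (4A, 4B, 6A, 6B) and 3278, 3534, 2805 and 3674 in KO (44A, 44B, 47A, 47B). Both KO clones were raised alike, and CDH1 rose by 1.17 ± 0.13 (adjusted p = 0.000197), a call kept in 23 of 24 fits and missed in that of all 24 libraries (0.071). Of 6 tested epithelial markers in HCT116, 1 rose and 2 fell, beside 8.05% and 5.93% of all genes tested. EPCAM rose by 0.46 (0.00630), CDX2 fell by 0.47 (0.0281) and KRT20 went from 77.8 to 0.48. KRT20 entered the test there through its WT libraries alone, so that its fall was fixed by the filter. The part of these markers in the CDH1 values was not tested. In HT29, clones of a genotype differed instead. CDH1 was 6089 and 5633 in WT 11, 10410 and 10586 in WT 40, 17543 and 18417 in KO 28 and 7339 and 5859 in KO 38. KO 28 was thus the highest clone and KO 38 lay within the WT range. WT 40 exceeded WT 11 by 0.84 ± 0.18 (adjusted p = 0.0241), KO 38 was below KO 28 by 1.45 ± 0.18 (0.00146) and the genotypes differed by 0.47 ± 0.42 (0.597).

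In SW480, CDH1 was near the bottom of the scale in both genotypes, at 20.2 and 34.0 in WT 4, 85.9 and 82.2 in WT 5, 55.5 and 45.9 in KO 17 and 45.8 and 28.8 in KO 21. The genotypes differed there by -0.14 ± 0.44 (adjusted p = 0.822), whereas WT 5 exceeded WT 4 by 1.64 ± 0.31 (0.00241). Without WT 4 the difference was -0.96 (0.0329). The KO effects on CDH1 in HCT116 and SW480 differed by 1.31 ± 0.56, which missed the threshold (adjusted p = 0.143).

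CDH3, the P-cadherin gene, was high in HCT116 alone, with 4740, 4343, 4004 and 3938 in WT (4A, 4B, 6A, 6B) and 6101, 5574, 4439 and 4145 in KO (44A, 44B, 47A, 47B). The difference there was 0.24 ± 0.13 (adjusted p = 0.255), and 0.46 without KO 47 (0.0229). In SW480 it fell by 2.52 ± 0.37 (0.00029), from 37.4, 41.4, 53.1 and 68.5 in WT (4A, 4B, 5A, 5B) to 16.9, 7.34, 5.60 and 4.80 in KO (17A, 17B, 21A, 21B). That call was lost in the fit of all 24 libraries only (0.187), and the levels were low throughout, with 1 of 4 KO libraries at the minimum of 10 that the filter used. In HT29 each clone had a level of its own: 58.6 and 65.9 in WT 11, 2.96 and 3.76 in WT 40, 2.01 and 0 in KO 28 and 345 and 289 in KO 38. Clones of one genotype thus lay on either side of the other genotype, and the genotypes differed by 0.50 ± 2.03 (0.923). KO 38 had 587 reads and KO 28 had 2, a ratio of 324 after scaling (95% counting interval 89.3 to 2683), and WT 11 had 126 reads against 6 in WT 40, a ratio of 18.7 (8.38 to 52.1). CDH3 met the filter in HT29 through the high clones WT 11 and KO 38 alone. Both clone differences were thus fixed by the filter, and their tests are not given.

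CDH17 appeared in HT29 KO clones and hardly elsewhere. The HT29 WT libraries held 4 reads together, and the normalized counts were 0.96 and 0 in WT 11, 2.96 and 0 in WT 40, 475 and 421 in KO 28 and 22.8 and 18.2 in KO 38. KO 28 was 429 times WT (902 reads, 95% counting interval 167 to 1579) and KO 38, with 38 reads, exceeded WT with a counting interval of 7.19 to 77.1 times. KO 38 was below KO 28 by 4.39 ± 0.69 on the log2 scale (adjusted p = 0.00523). Since the filter kept CDH17 through the KO libraries alone, its test against WT says nothing and is not given. Its fitted log2 difference depends on the pseudocount, from 4.19 to 7.82 over the alternatives, and is no bound. In HCT116 and SW480 no library had more than 10 reads of CDH17, and it was not tested. Of 7 tested epithelial markers in HT29, 3 rose, beside 2.08% of all genes tested. KRT20, a keratin of differentiated gut epithelium, rose by 2.34 (0.0361), LGALS4 by 2.21 (0.0441) and KRT19 by 1.54 (0.00537). The part of these markers in the cadherin values was not tested.

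**Figure D5:**
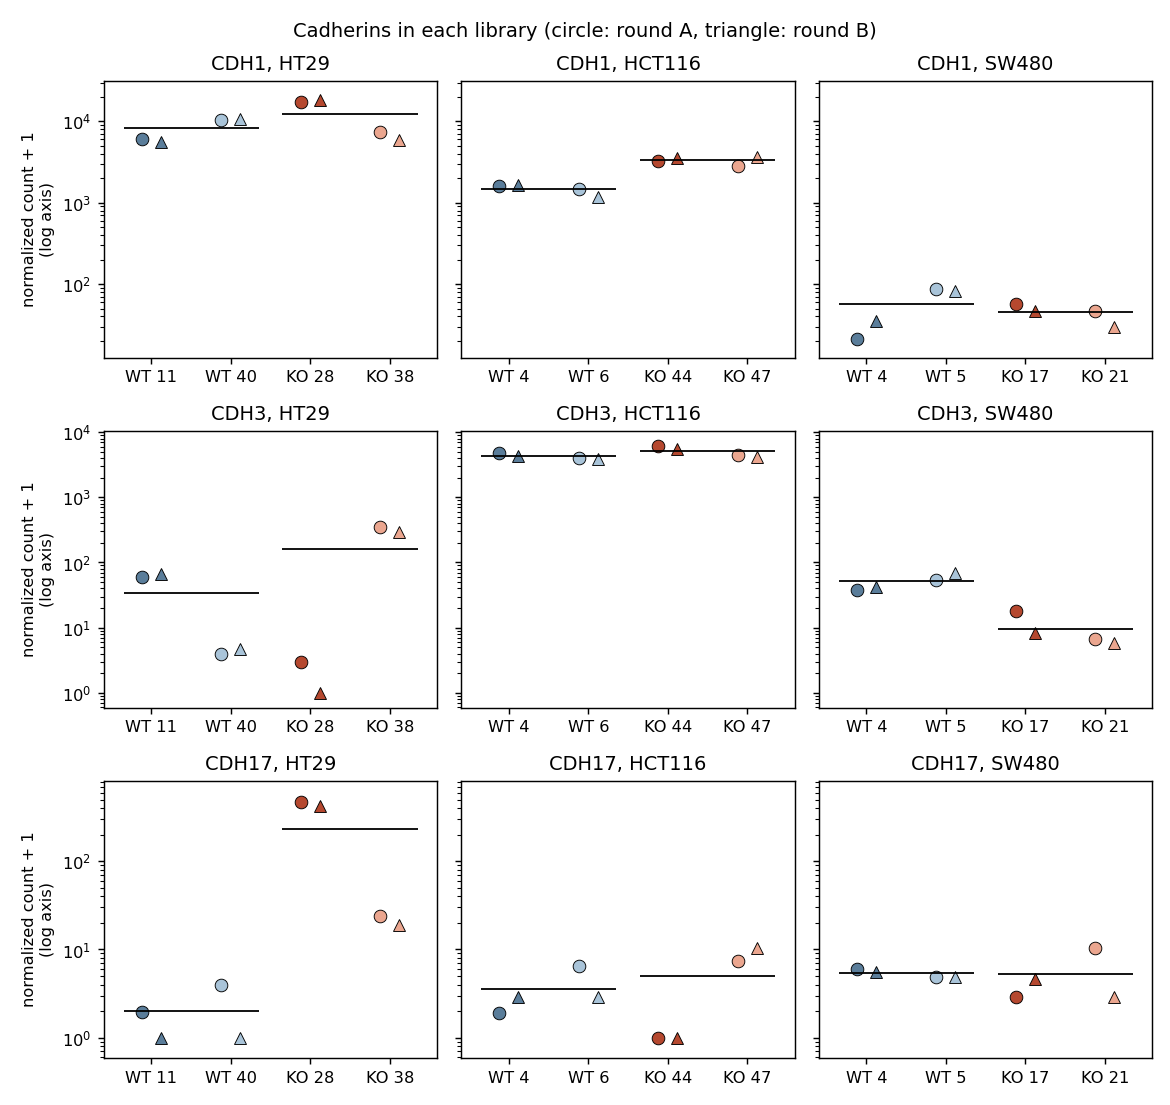
Normalized counts plus 1 (y axis, log scale, shared within a row) of CDH1, CDH3 and CDH17 in each of the 24 libraries by clone (x axis), with WT clones in blue, KO clones in red, circles for round A, triangles for round B and lines at the mean of 4 libraries. In HCT116 both KO clones lie above WT for CDH1, whereas in HT29 the clones of one genotype lie far apart for CDH3 (345 and 289 in KO 38, 2.01 and 0 in KO 28) and CDH17.

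The lines differed in the stock of junction genes they started from. Between WT clones, 9 of 9 tested genes differed between HT29 and HCT116, 8 of 9 between HT29 and SW480 and 7 of 9 between HCT116 and SW480, against 57.9%, 57.1% and 58.6% of all genes. Per kb, CTNNB1 was highest in SW480 (12829 ± 1195, SD, n = 4), then HCT116 (3256 ± 273) and HT29 (1645 ± 27.1), whereas JUP ran the other way, from 2627 ± 713 in HT29 over 1570 ± 200 in HCT116 to 379 ± 30.3 in SW480. Each neighbouring pair in these orders differed (adjusted p at most 0.0015). CDH1 per kb went from 1700 ± 558 in HT29 over 308 ± 44.6 in HCT116 to 11.6 ± 6.94 in SW480, the WT levels of HT29 and SW480 differing by 7.35 ± 0.39 on the log2 scale (8.1e-13). CDH3 was at 956 ± 82.7 in HCT116, 11.3 ± 3.14 in SW480 and 7.37 ± 7.66 in HT29, of which the last pair did not differ past the threshold (0.324). PKP2 was highest in SW480, PKP3 highest in HT29 and DSP lowest in HT29, and DSP and CTNND1 did not differ past the threshold between HCT116 and SW480 (0.299 and 0.543).

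Of the other junction genes, PERP, a tetraspan membrane protein of desmosomes, rose in all 3 lines. PERP went from 5189 ± 605 (SD, n = 4) to 13747 ± 4152 in HT29, from 5855 ± 1180 to 9278 ± 594 in HCT116 and from 2505 ± 256 to 3332 ± 367 in SW480. These were rises of 1.37 (adjusted p = 0.0151, kept in 16 of 24 fits), 0.69 (0.00761, 23 of 24) and 0.41 (0.00592, 21 of 24). In HT29 the rise was lost without WT 11A, WT 11B, WT 40B or KO 38A (0.051 to 0.054) without WT 11 or WT 40 (0.094 and 0.080) and with the clone taken as random (0.072), in SW480 without WT 5 (0.072) and in the fit of all 24 libraries (0.075), and in all 3 lines on summed reads (0.568, 0.089 and 0.094). Among 11 other desmosome genes, 1 of 7 tested rose in HT29, 4 of 7 in HCT116, and 4 of 5 rose and 1 fell in SW480, with medians of 0.11, 0.59 and 1.13 beside 0.03, -0.01 and 0.00 over all genes. Of all genes tested, 2.08%, 8.05% and 26.1% rose and 0.476%, 5.93% and 22.1% fell in HT29, HCT116 and SW480, the shares beside which the counts of this and the next 2 paragraphs stand. PPL, the plakin periplakin, rose from 1521 ± 335 to 4596 ± 1277 in HCT116 (1.58, adjusted p = 0.000654) and from 1434 ± 138 to 10003 ± 1980 in SW480 (2.79, 1.15e-07). DSG2, a desmosomal cadherin, rose in HCT116 by 0.58 (0.0140) and in SW480 went from 765 to 1065 in WT to 11.9 to 358 in KO, a fall of 3.73 (0.0299) that held in 11 of 24 fits and was lost without WT 4B, WT 5A, WT 5B, KO 17A or KO 17B (0.052 to 0.077) or without WT 4 or WT 5 (0.099 and 0.112). Its size rested on the clone: KO 21 was above KO 17 by 4.73 ± 0.13 (adjusted p = 1.16e-12), and the fall was 1.37 without KO 17 and 6.09 without KO 21. The DSG2 rise in HCT116 held in 18 of 24 fits. It was lost without WT 4, WT 6 or KO 44 (0.060 to 0.098), with the clone as a random effect (0.069), on summed reads (0.062) and in the fit of all 24 libraries (0.744).

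Of the other catenin and armadillo genes, 1 of 4 tested rose and 3 fell in SW480. In HT29 0 of 4 passed with limma and with edgeR and 2 with DESeq2, all 4 having an unadjusted p under 0.05, and in HCT116 0 of 3 passed with any of these tools or unadjusted. Whether the lines differed in this was not tested. Of 24 other cadherins, 5 were tested in SW480, of which 1 rose and 1 fell. With limma 0 of 3 passed in HT29 (0 with edgeR, 2 with DESeq2, 2 unadjusted) and 0 of 5 in HCT116 (0 with edgeR, 0 with DESeq2, 1 unadjusted). CDH11, a classical cadherin of mesenchymal cells, fell in SW480 from 4196 ± 906 to 2106 ± 392 (a fall of 0.99, adjusted p = 0.000947, and 0.179 in the fit of all 24 libraries). CDH13, a cadherin anchored by a lipid and without a catenin-binding tail, rose in SW480 from 466 ± 66.3 to 2268 ± 287 (2.28, adjusted p = 1.97e-07). Among 19 actin linkers and nectin partners, 1 rose in HT29, 6 rose and 3 fell in HCT116 and 10 rose and 5 fell in SW480, with medians of -0.02, 0.16 and 0.22. LIMA1, an actin-bundling partner of α-catenin, rose in HCT116 (1.27, 0.000498) and SW480 (1.82, 0.000152). Nectins, the second adhesion system of adherens junctions, were lower in part: NECTIN3 went from 4330 ± 1681 to 339 ± 187 in HCT116 (a fall of 3.77, 0.00104, and 0.188 on summed reads) and NECTIN1 from 2692 ± 341 to 1190 ± 110 in SW480 (a fall of 1.17, 7.11e-06). NECTIN4 rose in HT29 (1.60, 0.0473), a call kept in 6 of 24 fits and lost without any 1 of the HT29 libraries except WT 40B and KO 38A (0.0645 to 0.150) and without the clones WT 11, WT 40 or KO 28 (0.088 to 0.208). In SW480 it was 49.0 ± 16.4 in WT and 2.35 ± 0.546 in KO, and it entered the test there through its WT libraries alone, so that its place among the 5 falls was fixed by the filter.

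Of the 6 repressors of E-cadherin, SNAI2 rose from 12.7 ± 7.05 to 233 ± 148 in HCT116 (3.97, adjusted p = 0.000684, and 0.062 on summed reads), the line in which CDH1 rose as well, and from 52.8 ± 27.0 to 1040 ± 230 in SW480 (4.39, 3.54e-06). No read of SNAI2 was counted in HT29. Of all 6, SNAI1 alone was tested in HT29 and did not pass (adjusted p = 0.698), 1 of 4 rose and 1 fell in HCT116, and 3 of 4 rose and 1 fell in SW480.

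The 5 genes whose pattern was most like that of JUP were ATOSB (Pearson r = 0.952), PSAP (0.948), NBR1 (0.933), MVP (0.931) and TCIRG1 (0.929). The measure was taken across 24 libraries after removal of the mean of each line, over 11762 genes with a mean of at least 100. It is a description, since libraries of a clone share the clone and all points share the KO against WT contrast. PSAP, the precursor of the lysosomal saposins, went from 17663 to 27068 in HT29, from 13076 to 18040 in HCT116 and from 11341 to 23222 in SW480. MVP, the major vault protein, went from 1450 to 4304, from 2746 to 4728 and from 414 to 3376.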

How the data were processed

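Libraries were made by a service provider from total RNA of 24 samples (oligo-dT capture, TruSeq RNA v2, no strand). The authors' reads were aligned to GRCh37 with STAR 2.7.5b and counted per gene with featureCounts 2.0.1. The deposited values are signal: gene counts that the authors divided by 1 DESeq2 size factor per library. Whole reads were recovered for 100% of values (within 0.01 reads), and the factors matched those of DESeq2 over 24 libraries (largest relative difference 5.3e-11). Symbols were matched for 95.8% of identifiers. Tables of the authors' own comparisons (fold changes and p-values) were not used.

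Genotypes were compared within lines with limma 3.58.1 (trend, robust) on log2(value + 1), for genes that reached 10 in 4 or more of 8 libraries, with Benjamini-Hochberg adjustment over all of them. A log2 difference on this scale understates changes of low genes. DEGs had an adjusted p under 0.05 and an absolute log2 difference over 1. Differences between lines and WT levels were fitted over all 24 libraries, and clones from their rounds. Alternatives were edgeR 4.0.16 with TMM or RLE and DESeq2 1.42.0 on recovered reads, limma with TMM scaling, reads of a clone summed, clone as a random effect, round as a block, other filters and pseudocounts, a joint fit, and each library or clone left out. Scripts were tested on simulated data. R 4.3.3, Python 3.11.15, scipy 1.17.1 and matplotlib 3.10.9 were used.

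Per-kb levels used the exon length of the canonical transcript. Counting intervals (95%, conditional binomial) and floors of 3 reads cover counting error only.

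Rounds paired the HCT116 libraries: the log2 differences of round A minus round B of a clone correlated across genes in 6 of 6 clone pairs above 0.1 (0.182 to 0.374).

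All 10 genes were named. Of the other junction genes, up to 3 DEGs with the largest rise and 3 with the largest fall per line (mean of at least 100) and DEGs shared in direction by 2 or more lines were named. CDH11, SNAI1 and the marker genes were named after their values were seen. A gene that this rule also names, and a marker gene, are not reported here. The 10 genes and the lists were chosen with earlier results of these data known. The study describes the rounds as 2 independent biological replicates, without giving how their cultures were separated. The p-values measure the spread between these libraries.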

Additional observations from a re-analysis of the deposited data

Results flagged for a closer look

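Of 60 groups of 4 libraries examined (10 genes, 3 lines, 2 genotypes), 1 had a library that stood apart. For 4 independent values chance gives about 1 in 20 groups. Libraries of a clone share the clone, so that this rate does not strictly apply here. The group was DSP in HCT116 KO, where library 47B had a normalized count of 8052 and the other 3 libraries lay between 4864 and 5310.

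Of 27 differences of KO effects between lines, 8 passed an adjusted p of 0.05. CTNNB1, the deleted gene, is among the genes that passed. Of all genes tested, 7.82% passed between HT29 and HCT116, 14.1% between HT29 and SW480 and 12.2% between HCT116 and SW480. For CTNNB1 the effect in HT29 minus that in HCT116 was 1.44 on the log2 scale, and minus that in SW480 1.21. For PKP2 the effect in HT29 minus that in HCT116 was -0.97, and the effect in HCT116 minus that in SW480 was 1.53. For PKP3 the effect in HT29 minus that in SW480 was 1.03, and in HCT116 minus SW480 1.26. For DSP these differences were 1.82 and 0.98.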

How the results depend on the processing

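Of 1650 alternative values, 1495 kept direction and side of the threshold, or a count within 1.5 times. In HT29, genes of the 10 that rose numbered 2 in the main fit (JUP, and CDH17, whose test is not read), 0 with the reads of a clone summed or the clone as a random effect, and 1 with the replicate block, a value of at least 10 in every library or a pseudocount of 5. They numbered 0 to 1 with a library left out or a clone left out. The CTNNB1 fall passed in HT29 in every fit except the summed reads (-4.37), where 0 genes fell. JUP in HT29 missed with summed reads (1.07) and the clone as a random effect (1.10), and without 1 library or clone its value was 0.80 to 1.41. In HCT116, genes that rose numbered 2 in place of 4 with summed reads and in the joint fit of 24 libraries, 2 to 5 without a clone or library, and 6 with the replicate block. In SW480 they numbered 1 in place of 2 in the joint fit. KO effects that differed between HT29 and HCT116 numbered 1 in place of 2 with the clone as a random effect and with the replicate block. With at least 10 in every library, 1 gene in place of 2 differed between the WT clones of HT29 and 1 in place of 3 between its KO clones. The summed CTNNB1 and JUP level in HCT116 was -0.11 with joined exons. Without 1 clone its log2 difference was 0.22 to 0.58 in HT29, -0.89 to -0.66 in HCT116 and -3.89 to -3.20 in SW480, where 2 against 4 cannot give a p under 0.133. Turned values were CTNNA1 in SW480 without KO 17 (0.20, and -0.20 without KO 21) and NECTIN4 in HCT116 without WT 4 (1.37, and -2.17 without WT 6). Another 58 uncalled values changed sign. The cause was not tested, except that summed reads and left-out clones leave fewer samples and the stricter filter removes CDH3 and CDH17.

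Rounds did not pair the libraries in HT29 (2 of 6 pairs over 0.1, correlations -0.309 to 0.424) or in SW480 (1 of 6, -0.041 to 0.127). With the replicate block JUP kept its call in HT29 (adjusted p = 0.0474), and of the calls of the 10 genes in each line it changed those of CDH17 in HT29 and of CTNNA1 and CTNND1 in HCT116 alone. Every level below 10 reads is set by few counts.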
